A study of Mus musculus with 12 samples.

Results

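The genes for the proteins of the cytosolic ribosome are described here in 3T3-L1 adipocytes, a mouse fat cell line made by differentiating cultured preadipocytes. They were chosen by name: a symbol of the form Rpl or Rps plus a number, with or without a final a, x or l, or one of Rpsa, Rplp0, Rplp1 and Rplp2. The array's annotation gave 60 such genes, each with 1 transcript cluster, out of 22104 clusters in all, of which 19509 carry 1 gene symbol. They are 32 genes of the large subunit, 21 of the small subunit, 2 of the ribosomal stalk (Rplp0 and Rplp1) and 5 paralogues with restricted or lesser-known expression (Rpl3l, Rpl10l, Rpl39l, Rps4l and Rps27l). Rpl32l, by its symbol a form of Rpl32, is not in that list of paralogues and is counted with the large subunit throughout. Ribosomal genes that this form of name leaves out are read only as a short list further on. The naming rule uses no measured value, but it was chosen with earlier results of these data known.

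The cells were harvested at day 8 of differentiation after 1 of 4 treatments given from day 0: control (ethanol and DMSO, the solvents), alpha-linolenic acid (ALA, 50 µM), an inhibitor of delta-6-desaturase (D6D, 5 µM), or ALA and the inhibitor together. The ALA medium held fatty acid free albumin, and the labels name no albumin for the other media, so ALA and albumin cannot be told apart. Delta-6-desaturase carries out the first step in turning ALA into longer omega-3 fatty acids. Each treatment was run once on cells of passage 6, once on passage 7 and once on passage 8, which gave 12 arrays of 1 cell line, 3 a treatment and 4 a passage. The labels do not say how the cultures of a passage were kept apart, so the p-values measure the spread between these arrays. Signals are log2 values from the deposited normalization, so differences are log2 fold changes. A probe set's brightness depends on its probes as well as on the RNA, so the signals of different genes are not compared as amounts. Ribosomal protein genes have many near-identical processed copies in the genome, and how far such copies add to a signal was not tested.

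A ribosome is built from a small subunit, which reads the messenger RNA, and a large subunit, which forms the peptide bonds, and each holds many small basic proteins around ribosomal RNA. Most of the proteins are needed in equal numbers, and ribosomal protein genes are known for being expressed together and strongly in most cells. Most messenger RNAs of these genes begin with a C followed by a run of pyrimidines, the 5′ terminal oligopyrimidine (TOP) motif. Through it mTOR signalling and the protein LARP1 control their translation and stability when growth conditions change. Insulin, which these cells received in the maintenance medium, is a known activator of mTOR.

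The start-site sequences show what the genes share apart from their names. RefSeq's table for the mouse build GRCm38.p6 held promoters for 47 of the 60 genes, with 58 start sites between them, since some genes have several. Windows of 30 bases, from 20 before to 10 from the start on, are printed for genes whose values are described below, among them Rps15a, one of the most alike to the average of the others, Rps6, nearly level between passages, and paralogues for contrast, with the longest pyrimidine run of 7 or more bases that begins with C in capitals.
Rpl35a, chr16:33056462-33056491, plus strand: gcgcggcggggcttgCCTTCCTCTTTCCgc
Rps25, chr9:44407694-44407723, plus strand: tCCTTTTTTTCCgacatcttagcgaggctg
Rps15a, chr7:118116138-118116167, minus strand: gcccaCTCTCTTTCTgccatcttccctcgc
Rpl5, chr5:107900508-107900537, plus strand: CTCTTTCTCacgtcgcttgcgtgctggtgg
Rps18, chr17:33955656-33955685, minus strand: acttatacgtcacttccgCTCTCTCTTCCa
Rps24, chr14:24490658-24490687, plus strand: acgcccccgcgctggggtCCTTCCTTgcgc
Rps21, chr2:180257359-180257388, plus strand: gcacttaccgaggacccgCCCTCCTgccca
Rps6, chr4:86857358-86857387, minus strand: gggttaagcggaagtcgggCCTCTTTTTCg
Rpl9, chr5:65391422-65391451, minus strand: gcgacacgcagggccctgacggattacaag
Rpl27, chr11:101442225-101442254, plus strand: ccggaacgctctgttcctgtctgctgctcg
Rps16, chr7:28350669-28350698, plus strand: taaagcccgcttctgtcgtgacgtagcact
Rpl3l, chr17:24727806-24727835, plus strand: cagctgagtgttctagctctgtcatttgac
Rpl10l, chr12:66284392-66284421, minus strand: agaaatttggcctccattttgcggctggcg
For Rpl35a, Rps21 and Rps24 the entry with the run is shown among several, and for Rpl3l the first of its entries.

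Such a run, searched on the gene's strand in this window, was present at 25 of the 58 start sites of these genes (43.1%), in 25 genes, against 4817 of 32851 start sites in the whole table (14.7%). The annotated start decides which bases fall in the window, and the windows of Rpl9, Rpl27, Rps16, Rpl3l and Rpl10l hold no such run. In Rps25, Rps15a and Rpl5 the run ends before the annotated start and so lies outside the annotated RNA. Whether the RNAs begin with such a run was not tested. Other motifs were searched on both strands in the whole 300 bases of each promoter. GGAAGT, the core bound by ETS factors, was found in 41.4% of the 58 promoters and 23.8% of all. GGGCGG, the core of the GC box, was in 53.4% and 35.7%, AAGATGG, the core bound by YY1, in 15.5% and 6.34%, and the TATA box core TATAAA in 10.3% and 13.6%. The 100 bases before the start are printed for 2 small subunit genes that hold several copies of the ETS core, in capitals.
Rps6, chr4:86857368-86857467, minus strand: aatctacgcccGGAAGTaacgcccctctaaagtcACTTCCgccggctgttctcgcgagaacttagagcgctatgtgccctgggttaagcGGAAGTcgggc
Rps18, chr17:33955666-33955765, minus strand: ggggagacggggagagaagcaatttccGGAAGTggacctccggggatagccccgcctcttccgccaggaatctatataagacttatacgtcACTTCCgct
These matches describe letters and show no binding.

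The 60 genes ranged in mean signal over the 12 arrays from 4.65 for Rpl3l to 12.55 for Rps23, beside array medians of 6.14 to 6.27. Rps23, Rpl28, Rpl21 and Rpl4 had the highest means (12.55, 12.55, 12.51 and 12.50). Outside the paralogues the lowest were Rpl27 (8.30), Rpl35a (9.21) and Rps19 (9.35), all far above the array medians. The restricted paralogues were the dim end: Rpl3l, a striated muscle form of Rpl3, had a mean of 4.65, Rpl39l 5.12, Rps4l 6.22, Rpl10l, a form used in male germ cells, 6.97, and Rps27l, a p53 target, 8.14.

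The genes varied together over the arrays. The median correlation between pairs of the 60 genes over the 12 arrays was 0.51, and 0.58 among the 55 genes without the paralogues. The arrays share cell line, platform and normalization. On the ALA array of passage 7, which stood apart in the whole series, 30 of the 60 genes had their lowest value and 6 their highest. The correlations given here were not computed without that array, nor for other clusters of similar signal. Against the average of the other members, 48 of the 60 genes had a correlation above 0.5, with Rps24 (0.95), Rpl7 (0.94) and Rps15a (0.94) the most alike. Rpl3l (-0.72), Rps4l (-0.56), Rpl10l (-0.36) and Rpl28 (-0.02) were the 4 genes below 0. The range of motion was small: the median SD of a gene over the 12 arrays was 0.13, beside 0.11 for 1171 other clusters at or above the lower quartile of the members' means (10.33) and 0.21 for all clusters. The most variable over the 12 arrays was Rpl35a, a large subunit protein whose human gene is among those mutated in Diamond-Blackfan anaemia, with an SD of 0.45. That SD leans on 1 value, 7.94 on the ALA array of passage 7, beside 8.998 to 9.665 on the other arrays. The ranking by SD was not repeated without that array.

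**Figure D1:**
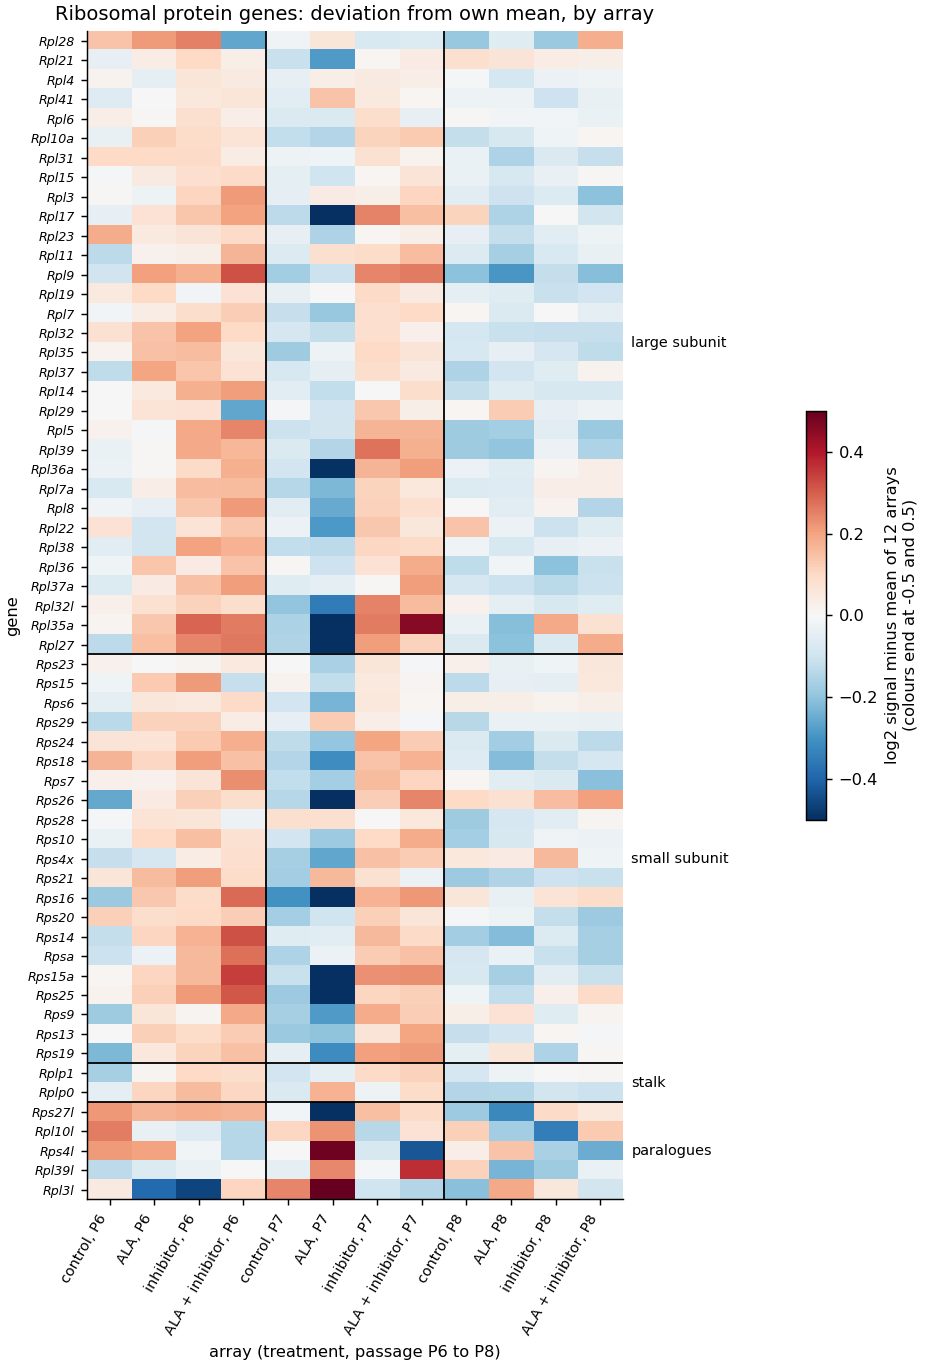
Deviation of each gene's log2 signal from its own mean over the 12 arrays (colour, red above and blue below) for 60 genes (rows, grouped by subunit and ordered by mean signal) and 12 arrays (columns, grouped by passage 6, 7 and 8). Most rows are red under the inhibitor and under both agents at passages 6 and 7, and 30 of the 60 genes had their lowest value on the ALA array of passage 7.

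The average of the 60 deviations sums up each array. It was -0.01, -0.08 and -0.05 in the control arrays of passages 6, 7 and 8, and 0.06, -0.15 and -0.08 in the ALA arrays. With the inhibitor it was 0.11, 0.10 and -0.05, and with both agents 0.12, 0.10 and -0.04. The 4 highest arrays were thus the inhibitor-treated ones of passages 6 and 7, with 53 to 55 genes above their own mean, while the inhibitor-treated arrays of passage 8 lay among the controls, with 16 and 21. As treatment means the control stood at -0.05 ± 0.03, ALA at -0.06 ± 0.11, the inhibitor at 0.05 ± 0.09 and both at 0.06 ± 0.09 (SD, n = 3 each), so these ranges overlap. The ALA array of passage 7 stood apart in the whole series: its correlation with the other 11 arrays over all clusters was 0.976 to 0.987, beside 0.989 to 0.994 among the others, and the results it moved most are given without it too.

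**Figure D2:**
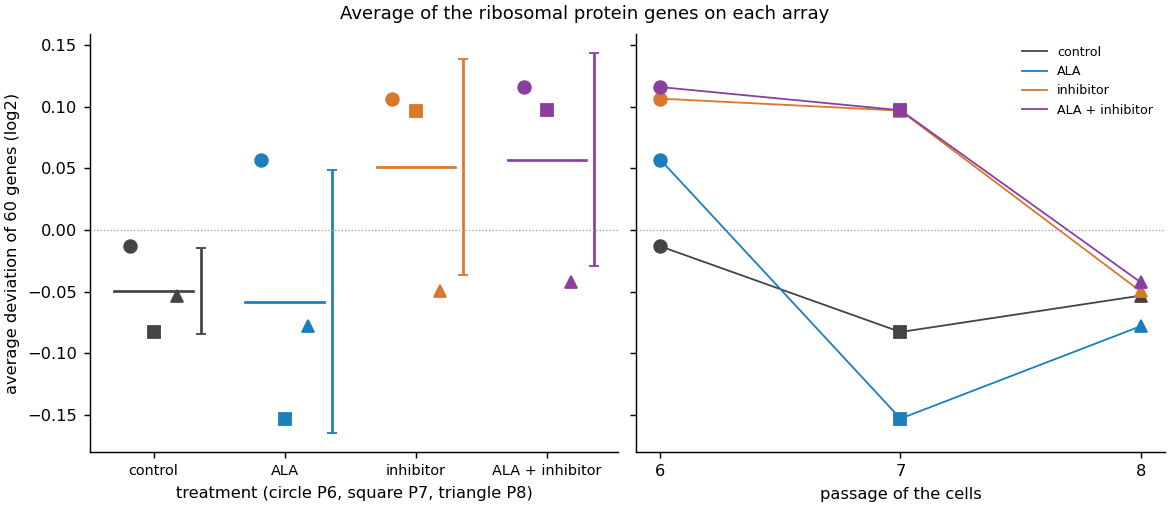
Average deviation of the 60 genes on each array (y axis, log2), by treatment (left, horizontal line at the mean of 3 arrays, side bar ± SD) and by passage (right, lines join the arrays of a treatment). With the inhibitor, alone or with ALA, the passage 6 and 7 arrays lie at 0.10 to 0.12 and the passage 8 arrays at -0.05 and -0.04, beside the control of passage 8 at -0.05.

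Inhibition of the desaturase, without added ALA, was compared with the solvent control. Of the 60 genes, 54 had a higher mean with the inhibitor, including all 21 small subunit genes, 30 of 32 large subunit genes and both stalk genes, but only 1 of the 5 paralogues. The median difference of the 60 genes was 0.12 on the log2 scale. Over all clusters 49.2% were higher and the median was -0.003. Among the 1171 other bright clusters, those at or above the lower quartile of the members' means, the median was 0.01. No gene of the 60 passed the adjusted threshold of 0.05 (limma, Benjamini-Hochberg over all clusters; 0% of all clusters did) and none had an unadjusted p under 0.01, the threshold named in the series' text, which 0.855% of all clusters met. The median difference was about as large as the members' median SD within a treatment, 0.12. That SD includes differences between passages, since the arrays of a treatment are each of another passage. The inhibitor difference had a passage pattern: 50 genes were higher at passage 6, 55 at passage 7 and 28 at passage 8, with average differences of 0.12, 0.18 and 0.004.

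Rpl35a gave 9.23, 9.05 and 9.18 in the control at passages 6, 7 and 8, and 9.50, 9.47 and 9.40 with the inhibitor. Every inhibitor array lay above every control array, and the difference was 0.31 (SE 0.26, 1.24-fold; adjusted p = 0.998 by limma). Rpl27, a large subunit protein, read 8.17, 8.15 and 8.22 in the control and 8.54, 8.51 and 8.23 with the inhibitor, with the passage 8 array just above the control arrays (difference 0.25, SE 0.16). Rps16, a small subunit protein, read 10.44, 10.32 and 10.68 and then 10.71, 10.80 and 10.69, again without overlap (difference 0.25, SE 0.17). Rpl9 read 11.64, 11.57 and 11.54 in the control and 11.92, 11.99 and 11.62 with the inhibitor, so its passage 8 array fell inside the control range (difference 0.26, SE 0.17).

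In 15 of the 60 genes all 3 inhibitor arrays were above all 3 control arrays, beside 5.88% of all clusters, and in 24 the inhibitor array was higher within every passage, beside 15.8%. The 15 were Rpl7a, Rpl8, Rpl10a, Rpl27, Rpl35a, Rpl36a, Rpl37, Rpl39, Rplp1, Rps10, Rps13, Rps16, Rps25, Rps26 and Rps29. Rplp1, a stalk protein that helps recruit translation factors, was 12.02, 12.09 and 12.10 in the control and 12.29, 12.28 and 12.19 with the inhibitor (difference 0.18, SE 0.10). The smallest p belonged to a paralogue that went the other way: Rpl10l was 7.22, 7.07 and 7.09 in the control and 6.90, 6.83 and 6.62 with the inhibitor, without overlap (difference -0.34, SE 0.13, adjusted p = 0.998 by limma).

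The inhibitor on top of ALA was compared with ALA alone, on 6 arrays that the previous comparison did not use. Of the 60 genes 48 were higher with the inhibitor (27 of 32 large subunit, 17 of 21 small subunit, 1 of 2 stalk and 3 of 5 paralogues), with a median difference of 0.12; of all clusters 46.6% were higher, with a median of -0.02. Again no member passed the adjusted threshold, nor did any cluster (0%), and 1 member had an unadjusted p under 0.01, beside 1.47% of all clusters. With passage as a block, the clusters under 0.01 rose from 325 to 561 and the members stayed at 1. By passage the average difference was 0.06, 0.25 and 0.04, with 43, 51 and 36 genes higher. The passage 7 value rests on the ALA array that stood apart; without it the median was 0.08 and 47 genes were higher, and without passage 7 in every group the median was 0.07.

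The largest differences here depended on that array. Rpl35a read 9.35, 7.94 and 8.998 with ALA and 9.47, 9.66 and 9.29 with both agents. The value of passage 7 with ALA lay more than 1 log2 unit under the other ALA arrays, and the difference was 0.71 (SE 0.26, 1.64-fold, adjusted p = 0.653 by limma), or 0.30 without that array. Rps25 read 10.35, 9.55 and 10.10 with ALA and 10.54, 10.35 and 10.32 with both, a difference of 0.40 (SE 0.17), or 0.18 without the array. Rps26, which lies at the exit of the messenger RNA channel, read 11.30, 10.51 and 11.33 and then 11.35, 11.51 and 11.46, without overlap (0.39, SE 0.19, or 0.12 without the array). Rpl27 was 8.45, 7.76 and 8.09 with ALA and 8.56, 8.41 and 8.48 with both (0.39, SE 0.16, or 0.21). Rpl36a was 10.93, 10.43 and 10.86 with ALA and 11.10, 11.13 and 10.96 with both, without overlap (0.32, SE 0.13, or 0.17 without the array). In 4 genes, Rpl7a, Rpl36a, Rpl38 and Rps26, all 3 arrays with both agents were above all 3 ALA arrays, beside 4.75% of all clusters, and in 26 genes the pair was higher in every passage, beside 14.2%.

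Rps4l, a copy of the Rps4 gene, was the member with a p under 0.01, and it was lower. It read 6.43, 6.71 and 6.37 with ALA and 6.08, 5.80 and 5.97 with both agents. The groups did not overlap, and the difference was -0.55 (SE 0.13, adjusted p = 0.653 by limma), or -0.44 without the ALA array of passage 7. Its signal lies close to the array median, so it is among the dim members.

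**Figure D3:**
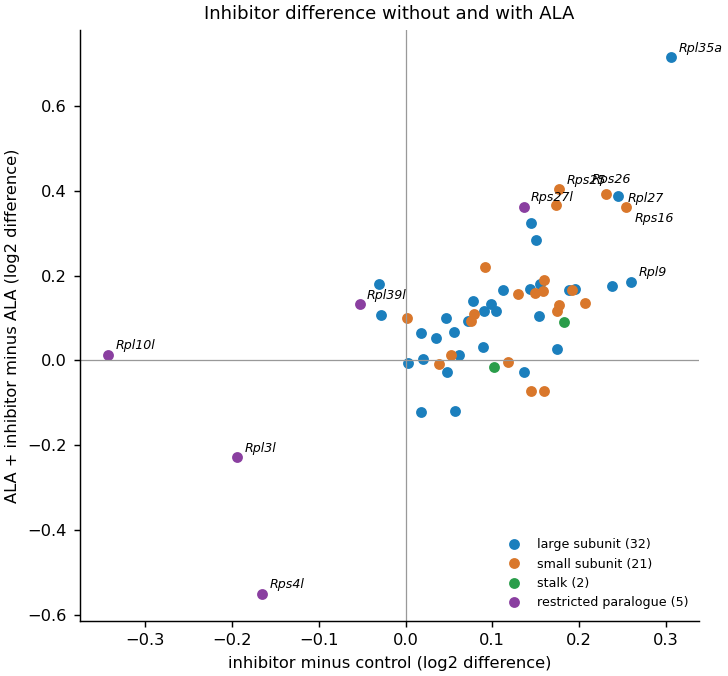
Each point is 1 of 60 genes: the log2 difference inhibitor minus control (x axis) against ALA plus inhibitor minus ALA (y axis), coloured by subunit, with 11 genes named. Points in the upper right quadrant, 44 genes, were higher with the inhibitor in both comparisons; Rpl3l and Rps4l are the 2 in the lower left.

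Both comparisons had 44 of the 60 genes higher, 73.3%, beside 28.6% of all clusters (42 genes and 26.0% without the ALA array of passage 7). The correlation of the differences across the 60 genes was 0.63, beside 0.29 across all clusters. It was not computed without the ALA array of passage 7, on which the largest differences with ALA depended. The arrays are not shared between the comparisons but the passages are, and genes are not independent replicates. Taking both comparisons into 1 contrast, the 6 arrays with the inhibitor against the 6 without, gave 54 genes higher with a median of 0.11, beside 46.7% of all clusters. This contrast was chosen after the data were seen. No member and no cluster passed the adjusted threshold (0%), and 1 member, Rps4l, had a p under 0.01 (difference -0.36, SE 0.09, adjusted p = 0.496 by limma), beside 1.9% of all clusters. Rpl27 (0.32, SE 0.11), Rpl35a (0.51, SE 0.19) and Rps16 (0.31, SE 0.12) followed. Without the ALA array of passage 7 these were 0.23, 0.30 and 0.20. In 2 genes, Rpl7a and Rpl36a, all 6 arrays with the inhibitor were above all 6 without, beside 0.231% of all clusters, and in 13 the inhibitor array was higher in all 6 pairs, beside 3.84%. Rpl7a, also of the large subunit, read 10.79, 10.72 and 10.79 in the control, 10.89, 10.64 and 10.80 with ALA, 11.02, 10.97 and 10.90 with the inhibitor and 11.02, 10.92 and 10.90 with both. The groups lay 0.002 apart, with 10.8946 the highest value without the inhibitor and 10.8966 the lowest with it, and in Rpl36a they lay 0.008 apart.

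**Figure D4:**
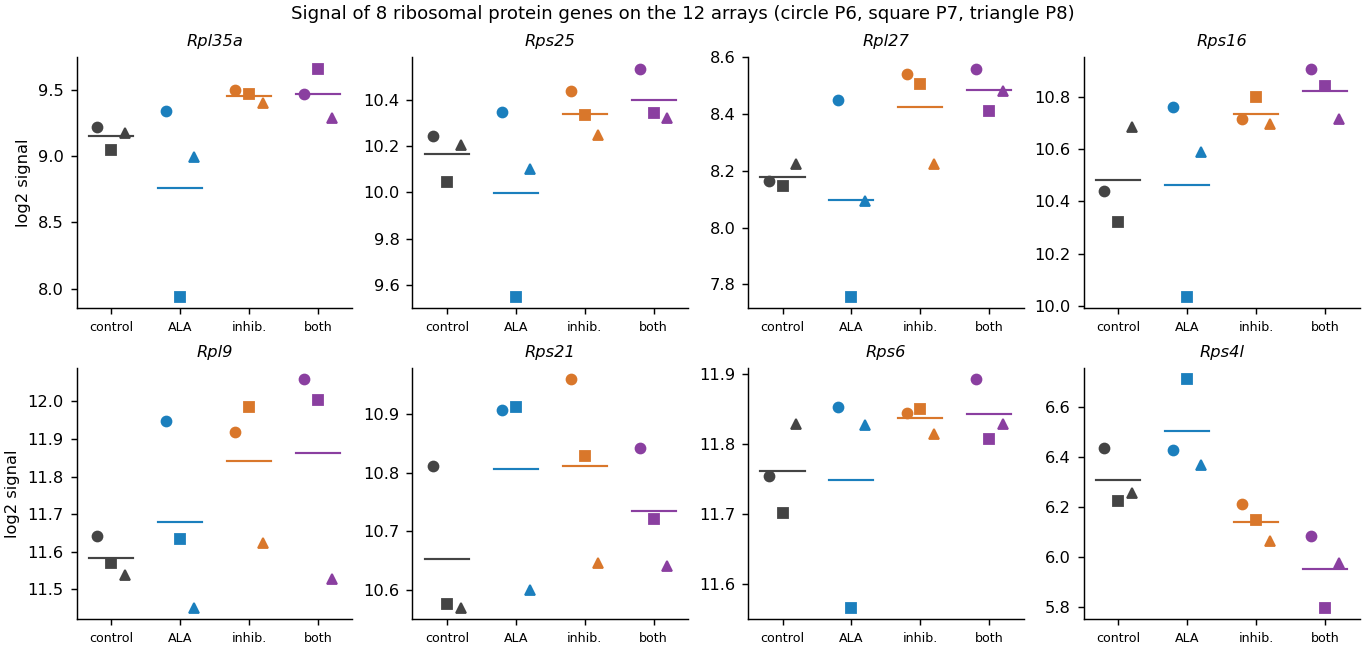
Log2 signal (y axis, a scale of its own in each panel, not starting at 0) of 8 genes on the 12 arrays, by treatment (x axis); circles are passage 6, squares passage 7 and triangles passage 8, and lines are means of 3 arrays. Rpl35a, Rps25, Rpl27 and Rps16 have their lowest value on the ALA array of passage 7; Rpl9 and Rps21 are low at passage 8; Rps4l is lower with the inhibitor.

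ALA alone, against the control, left the genes evenly split: 30 were higher and 30 lower, with a median of 0.001, beside 52.2% of all clusters higher. No member passed the adjusted threshold (0% of clusters did) or had a p under 0.01 (0.525% of clusters did), and the smallest p was that of Rps29 (difference 0.17, SE 0.10, adjusted p = 0.9998 by limma). Rpl35a had the lowest difference, -0.39 (SE 0.26), which was 0.02 without the ALA array of passage 7; without that array 43 genes were higher and the median was 0.05. By passage, 44, 25 and 23 genes were higher with ALA. Rplp0 and Rplp1 had differences of 0.13 (SE 0.12) and 0.10 (SE 0.10).

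Adding ALA to the inhibitor gave 32 higher genes and a median of 0.004, beside 48.1% of all clusters higher, with no member under an adjusted p of 0.05 (0%) or an unadjusted p of 0.01 (0.728% of clusters). Centring each array on its median made this 19 higher genes, and quantile normalization 38. The average difference was 0.01, 0.0002 and 0.01 at passages 6, 7 and 8: averaged over these genes, the inhibitor arrays of a passage lay at nearly the same level with and without ALA. Against the control, both agents gave 51 higher genes and a median of 0.11, beside 48.5% of all clusters higher, with none under the adjusted (0%) or the unadjusted threshold (0.828% of clusters, and 333 clusters in place of 183 with passage as a block). The test of whether the inhibitor difference depends on ALA had 33 genes on the positive side with a median of 0.01, beside 49% of clusters, but 16 genes and a median of -0.03 without the ALA array of passage 7; none passed the adjusted threshold (0%) and none the unadjusted one (0.638%). The largest terms were those of Rpl35a (0.41, SE 0.37, or -0.004 without the ALA array of passage 7) and, below 0, Rps4l (-0.38, SE 0.18).

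Passage was compared with the treatments balanced, 4 arrays against 4. Whatever else was done together with a passage cannot be told apart from it. From passage 6 to passage 8, 55 of the 60 genes were lower, among them 30 of 32 large subunit, 19 of 21 small subunit and both stalk genes, with a median difference of -0.13; of all clusters 47.1% were higher, their median was -0.01 and that of the bright clusters 0.01. No member passed the adjusted threshold, which 1.91% of all clusters (423) did, and 2 had a p under 0.01, beside 5.95% of all clusters (1316). Without the ALA array of passage 7, 5 members had a p under 0.01, beside 1696 of the 22104 clusters. In 20 of the 60 genes all 4 arrays of passage 8 were below all 4 of passage 6, beside 5.35% of all clusters, and in 33 the passage 8 array was lower under every treatment, beside 12.5%. The average difference was -0.04 in the control, -0.14 with ALA, -0.16 with the inhibitor and -0.16 with both, with 38, 51, 57 and 53 genes lower. It was smallest in the control cells; whether the treatments differ in this was not tested.

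Rpl9, a large subunit protein, had the smallest p. It read 11.64, 11.95, 11.92 and 12.06 at passage 6 in the control, ALA, inhibitor and combined cultures, and 11.54, 11.45, 11.62 and 11.53 at passage 8. All 4 values of passage 8 were lower than the lowest of passage 6, and the difference was -0.36 (SE 0.10, 0.78-fold, adjusted p = 0.125 by limma). Rps21, a small subunit protein, read 10.81, 10.91, 10.96 and 10.84 at passage 6 and 10.57, 10.60, 10.65 and 10.64 at passage 8, without overlap (-0.27, SE 0.08, adjusted p = 0.153 by limma). Rps18 (-0.28, SE 0.10), Rps14 (-0.28, SE 0.09) and Rpl5, which with Rpl11 binds MDM2 when ribosome assembly fails (-0.26, SE 0.08), came next. Rps18 read 11.50, 11.44, 11.54 and 11.48 and then 11.27, 11.12, 11.21 and 11.25, again without overlap. Where limma's prior spread was allowed to follow the signal, 10 members passed the adjusted threshold: Rpl5, Rpl9, Rpl14, Rpl31, Rpl32, Rpl39, Rps14, Rps18, Rps21 and Rps24, all lower at passage 8, with adjusted p from 0.0056 to 0.043. Under that setting 1163 clusters passed in place of 423.

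The 5 genes that were higher at passage 8 were Rpl3l (0.16), Rps26 (0.14), Rps4x (0.08), Rpl29 (0.05) and Rpl21 (0.02), each by less than 1 SE (0.20, 0.16, 0.09, 0.10 and 0.09). Rps6, the substrate of S6 kinase, was nearly level, at 11.75, 11.85, 11.85 and 11.89 and then 11.83, 11.83, 11.82 and 11.83. All 25 genes with a pyrimidine run in the 30-base window around an annotated start were lower at passage 8 (median -0.15). So were 19 of 22 with a promoter entry and no run in the window (median -0.09). This split was not tested. For the inhibitor against control the same groups had medians of 0.14 and 0.10.

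**Figure D5:**
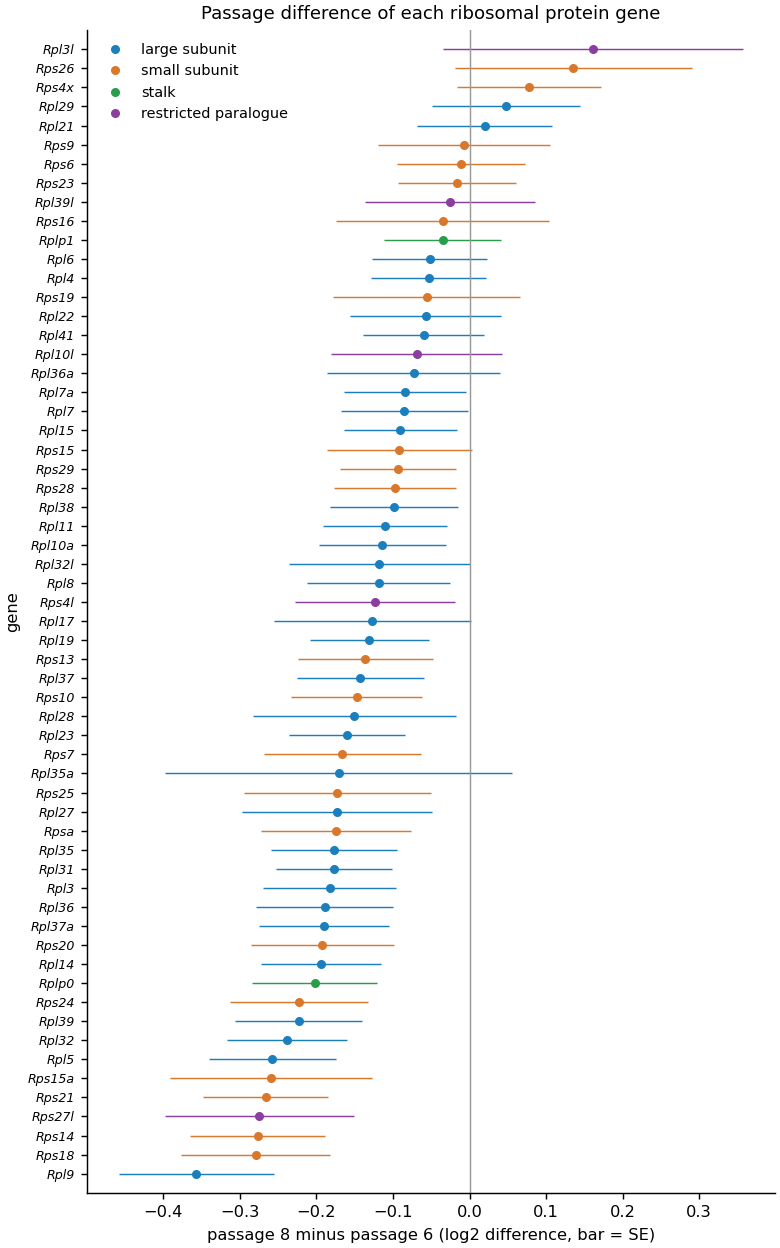
Log2 difference of passage 8 minus passage 6 (x axis, points, bars 1 SE of the limma fit, 4 arrays a passage) for each of the 60 genes (y axis, sorted), coloured by subunit. Points for 55 genes lie left of 0, from -0.36 for Rpl9; the 5 on the right end at 0.16 for Rpl3l.

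The step from passage 6 to 7 had 51 genes lower with a median of -0.07 (13 higher and -0.04 without the ALA array of passage 7), beside 51.1% of all clusters higher, and no member passed either threshold (0% and 2.09% of clusters). The step from passage 7 to 8 had 18 higher and 42 lower with a median of -0.05 (7 higher and -0.09 without that array), beside 46.5% of clusters higher, and again no member passed either threshold (0.864% and 7.08% of clusters). In this last step 25 genes were higher once each array was centred on its median, and 8 under quantile scaling. These comparisons share their arrays, so they are given side by side only: Rpl35a went by -0.36 and then 0.18, Rps25 by -0.33 and then 0.15, and Rpl9 by -0.09 and then -0.26. Without the ALA array of passage 7, Rpl35a went by -0.03 and then -0.14, Rps25 by -0.18 and then 0.006, and Rpl9 by -0.04 and then -0.31.

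The restricted paralogues differed among themselves: Rpl3l, Rps4l and Rpl10l had the negative correlations with the average of the other members given above, while Rps27l had a positive one, and all but Rpl3l were lower at passage 8 than at 6. Rpl3l read 4.70, 4.90 and 4.44 in the control, 4.26, 5.40 and 4.84 with ALA, 4.19, 4.55 and 4.71 with the inhibitor and 4.76, 4.50 and 4.56 with both, without order by treatment or passage. Rpl39l, a form best known from testis, read 4.99, 5.08 and 5.24, then 5.06, 5.36 and 4.89, 5.09, 5.12 and 4.95, and 5.12, 5.49 and 5.09. Both lie under the array medians, where the signal holds little information on level. Rps27l, the brightest of the 5, read 8.35, 8.13 and 7.96 in the control, 8.31, 7.52 and 7.82 with ALA, 8.32, 8.29 and 8.23 with the inhibitor and 8.31, 8.23 and 8.19 with both. It was lower from passage 6 to passage 8 in all 4 treatments (difference -0.27, SE 0.12), and its correlation was 0.75 with the average of the other members.

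Other genes of the translation machinery were read from lists. Of 5 ribosomal genes that the naming rule leaves out, all 5 were higher with the inhibitor, both without ALA (median 0.11) and with it (0.26), and 3 of 5 were lower at passage 8; none passed the adjusted threshold. Rpl22l1, a paralogue of Rpl22, had the largest inhibitor differences (0.40, SE 0.23, without ALA and 0.60, SE 0.23, with it), and Fau, which encodes a ubiquitin-like protein fused to a small subunit protein, had 0.08 and 0.10. Of 13 elongation factors and other TOP genes 12 were higher with the inhibitor without ALA (median 0.06) and 10 with it (0.08), among them Tpt1, a classical TOP transcript (0.12 and 0.26), and Eef1a1, which brings aminoacyl-tRNA to the ribosome (0.11 and 0.13). Of 11 subunits of initiation factor 3, 9 and 8 were higher (0.12 and 0.04). Of 76 mitochondrial ribosomal protein genes, 56 and 62 were higher with the inhibitor (0.08 and 0.09) and 62 were lower at passage 8 (median -0.09), 7 of them with a p under 0.01 and none under the adjusted threshold. Without the ALA array of passage 7 the counts with ALA were 5 of 5 (median 0.13) for the ribosomal genes outside the rule, 10 of 13 (0.03) for the elongation and TOP genes, 6 of 11 (0.04) for initiation factor 3 and 43 of 76 (0.02) for the mitochondrial ribosome. The differences were then 0.38 for Rpl22l1, 0.09 for Fau, 0.08 for Tpt1 and 0.07 for Eef1a1.

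Of 42 genes of ribosome biogenesis, 27 and 23 were higher with the inhibitor (0.03 and 0.01) and 27 were higher at passage 8 than at 6 (0.06), where the ribosomal proteins were lower. Polr1b, a subunit of RNA polymerase I, which makes ribosomal RNA, passed the adjusted threshold from passage 7 to 8 (0.62, SE 0.11, adjusted p = 0.039 by limma). It was the only 1 of the 42 to do so, beside 0.864% of all clusters. This step uses the ALA array of passage 7, and Polr1b was not read without it. Without that array 55 clusters passed in place of 191. Of 15 genes of growth control, 11 and 9 were higher with the inhibitor (0.06 and 0.03) and 12 at passage 8. Larp1, the TOP-binding repressor, differed by 0.01 without ALA and 0.25 with it (SE 0.11 each), and Maf1, a repressor of RNA polymerase III, by -0.36 and -0.07 (SE 0.11 each). Rps6kb2, which encodes S6 kinase 2, had the largest difference of this list with ALA, 0.47 (SE 0.14, adjusted p = 0.653 by limma), and 0.05 without ALA. Without the ALA array of passage 7, 16 of the 42 biogenesis genes (median -0.03) and 5 of the 15 growth control genes (-0.03) were higher with ALA, and the differences were 0.19 for Larp1, -0.03 for Maf1 and 0.39 for Rps6kb2. None of these passed the adjusted threshold in the inhibitor comparisons.

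Cell type markers moved alongside. All 7 measured adipocyte markers were above the array medians, at means of 9.92 to 13.08, and all 7 were higher at passage 8 than at 6 (median 0.17), 2 with a p under 0.01. Their average ran from 11.64 to 11.87 at passage 6 and from 11.87 to 11.96 at passage 8, and from 11.80 to 11.96 in the control and 11.64 to 11.91 with the inhibitor, where 6 of 7 were lower (median -0.08). The 4 measured preadipocyte and stromal markers were all lower with the inhibitor (median -0.22 without and -0.29 with ALA; with ALA, 3 of 4 and -0.255 without the ALA array of passage 7) and all higher at passage 8 (0.19, 1 passing the adjusted threshold). Their average was 9.15 to 9.37 in the control, 9.13 to 9.49 with ALA, 8.92 to 9.14 with the inhibitor and 8.99 to 9.23 with both. None was listed at 0, and their part in the ribosomal protein differences was not tested. Of the macrophage, endothelial and skeletal muscle markers, 2 of 15 had a mean above the array medians, as had 3 of 5 cartilage and bone markers, of which Sox9 passed the adjusted threshold at passage 8 (0.55, SE 0.11, adjusted p = 0.038 by limma). In bulk cultures a change in the mix of cells and a change of RNA per cell cannot be told apart.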

How the data were processed

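The 12 arrays were Affymetrix whole-transcript arrays of total RNA (RNA integrity number above 8.9, per the labels). The authors deposited log2 signals per transcript cluster, normalized by RMA, per the submitters' processing notes; scanner values and probe positions were not used here. Gene names came from GEO's annotation of the array. Treatments were compared with limma 3.58.1 in R 4.3.3 over all 22104 clusters with 12 arrays in 1 fit, and passages with treatment as a covariate, with Benjamini-Hochberg adjustment; the number of arrays limits the precision. The fit was tested on simulated data: of changes of 0.5 and 1 on the log2 scale among 22104 clusters, 13% and 68% were recovered for ALA against control and 22% and 85% for passage 8 against 6. The deviations of arrays of the same passage from their group means correlated above 0.1 in all 3 pairs for both comparisons of the combined treatment with ALA and with control (0.16 to 0.24 and 0.12 to 0.23), so the fit with passage as a block is given beside these; the pairing comes from the passage numbers. Named genes are the members with the largest and smallest differences and the smallest p, up to 4 each, the brightest and dimmest, and the stalk and paralogue genes; of the other lists, those with the smallest p or a textbook role, the latter chosen after their values were seen. The members and lists were chosen with earlier results of these data known. Alternatives were the passage block, array weights, an intensity trend, centring, quantile normalization, a filter on dim clusters, only the compared arrays, and leaving out each array or passage.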

Additional observations from a re-analysis of the deposited data

Results flagged for a closer look

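Rpl5 read 11.09 with the inhibitor at passage 8, beside 10.96 in the control, 10.97 with ALA and 10.95 with both agents of that passage, a gap to the nearest array that is large for the range of the 4. Rps29, a small subunit protein, read 11.41 in the control at passage 8, beside 11.52 in each of the other arrays of that passage. Of 66 groups of 4 arrays examined in this way 2 stood out, where chance gives about 1 in 20.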

How the results depend on the processing

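The count of members past the adjusted threshold stayed at 0 under all alternatives run except the intensity trend, which gave 10 for passage 8 against 6 and 1 (Rpl9) for passage 8 against 7; the cause was not tested. The same trend raised the members under an unadjusted p of 0.01 to 1 for inhibitor against control, 3 for both agents against ALA, 1 for both against control, 7 for the averaged inhibitor contrast, 14 for passage 8 against 6, 3 for passage 7 against 6 and 5 for passage 8 against 7. Array weights gave 2 for both against control, 2 for the averaged contrast and 5 for passage 8 against 6. For passage 8 against 6 there were 5 after quantile normalization or without the dimmest 30% of clusters, and 0 after centring or with only the compared arrays. Leaving out 1 array gave 0 to 1 for ALA against control, 1 to 6 for both against ALA, 0 to 1 for both against control, 1 to 6 for the averaged contrast, 0 to 5 for passage 8 against 6 and 0 to 1 for passage 8 against 7. Without passage 6 there were 2 for both against ALA, without passage 7 there were 0 for it and for the averaged contrast, and without passage 8 there were 0 for the averaged contrast. The number of all clusters under 0.01 changed with the setting too. Without the ALA array of passage 7 it rose from 1316 to 1696 for passage 8 against 6. For both against ALA it fell from 325 to 186. These member counts are given without that background for each setting, so no result about the members is read from them.

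Median differences ran over the left-out arrays from 0.09 to 0.17 for inhibitor against control, 0.08 to 0.19 for both against ALA, -0.04 to 0.05 for ALA against control, -0.04 to 0.06 for both against inhibitor and -0.15 to -0.09 for passage 8 against 6. With 1 array left out, Rpl3l differed between passages 8 and 6 by -0.0382 (without the ALA array of passage 6) to 0.3235 (without the combined array of passage 6), and Rpl35a between ALA and control by -0.6839 (without ALA passage 6) to 0.0209 (without ALA passage 7). Likewise Rpl29 ran from -0.0235 (without the combined array of passage 6) to 0.1049 and Rpl21 from -0.0156 (without the ALA array of passage 8, and below 0 also without the control array of passage 6 or 8) to 0.0525 between passages 8 and 6. Rpl35a ran from -0.004 (without ALA passage 7) to 0.7008 in the test of whether the inhibitor difference depends on ALA, where it was -0.0427 without passage 7 in every group, and from -0.1375 (without ALA passage 7) to 0.3695 between passages 8 and 7. With passage as a replicate block 0 members passed the adjusted threshold, and clusters under 0.01 rose from 189 to 322 for inhibitor against control, from 116 to 186 for ALA against control and from 420 to 750 for the averaged contrast, where 8 clusters were then called; only some of their same-passage pairs correlated above 0.1. The block with centring gave 3 members under 0.01 in the averaged contrast, and with quantile normalization 2. With 3 arrays a group, recovery in a single gene was not tested for differences as small as these medians. The smallest size tried was 0.5 on the log2 scale.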
